A study of Mus musculus with 24 samples.

Results

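The potassium channels examined here were the inward rectifiers (*Kcnj* genes), the 2-pore channels (*Kcnk* genes), the large-conductance calcium-activated (BK) channel and its beta subunits (*Kcnma1* and the *Kcnmb* genes), the small- and intermediate-conductance calcium-activated (SK and IK) channels (*Kcnn* genes) and the sodium-activated and pH-gated relatives of BK (*Kcnt1*, *Kcnt2* and *Kcnu1*). They were chosen by name alone: every protein-coding gene with such a symbol and a mean of at least 5 counts per mouse. This gave 39 members of the 55385 gene identifiers counted, 14 of them *Kcnj*, 13 *Kcnk*, 5 *Kcnma* or *Kcnmb*, 4 *Kcnn* and 3 *Kcnt* or *Kcnu* genes. *Kcnj1*, with 0 to 4 counts per mouse, and *Kcnk16*, with 0 to 20, carried a matching name but stayed under the minimum.

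RNA of the hippocampus of 24 adult mice of both sexes was sequenced, 4 mice in each of 6 groups. All mice carried 2 floxed copies of *Tsc1* (Tsc1 f/f) and all received tamoxifen. Controls (Tsc1-Cre-) lacked the Cre transgene and were taken on day 8 after the start of tamoxifen. Tsc1-Cre+ mice carried Camk2a-CreERT2, in which *Camk2a* regulatory sequence drives a tamoxifen-activated Cre, so that *Tsc1* is removed from CAMK2A-positive neurons only, and they were taken on day 4, 6, 8 or 13. Tsc1-Cre+-Rap 4 mice had the same deletion, received 10 mg/kg rapamycin, an inhibitor of mTOR, daily from day 4 and were taken on day 13. The library numbers under which the counts were deposited begin alike for controls and day 8 mice and differently for all other groups. What they stand for is not given in the sources used here; whatever it is cannot be told apart from time point and treatment in those groups. In whole tissue, fewer cells of a type and less RNA per cell cannot be told apart either.

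Potassium channels let potassium leave the cell and so hold the membrane near its resting potential or bring it back there after an action potential. Inward rectifiers and 2-pore channels carry most of the current at rest: Kir2 channels stabilise the resting potential, GIRK (Kir3) channels open when inhibitory receptors release G protein beta-gamma subunits, Kir4.1 in astrocytes takes up potassium released by neurons, and the 2-pore channels form the leak that anaesthetics, acid and membrane stretch can change. BK and SK channels open as calcium enters during firing and produce the afterhyperpolarization that limits how often a neuron can fire.

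Total counts per mouse ranged from 28208561 to 126435936. The widest spread was on day 13, where replicate B held 126435936 counts and the shallowest library 38423852. The targeted gene checked the labels: *Tsc1* was at 102 to 109 CPM (counts per 1000000, with library sizes scaled by the TMM method of edgeR) in controls and at 57.4 to 81.7 CPM in all 20 mice carrying Cre, and it did not differ detectably between rapamycin and day 13 (log2 fold change 0.09, adjusted p = 0.437). Summed markers of excitatory neurons (*Slc17a7*, *Camk2a*, *Neurod6*, *Nrgn*) ranged from 2269 to 3735 CPM over all libraries; of the 4, *Slc17a7* was called on day 13. Summed choroid plexus markers (*Ttr* and 5 other genes) were far more uneven, from 38.0 to 1691 CPM, and uneven within each group.

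In control hippocampus the members spanned several orders of magnitude per length, as shown by the plot of control levels. Levels between genes are given as CPM per kb of exon, mean ± SD of the 4 controls. *Kcnj3*, the obligate GIRK1 subunit of most neuronal GIRK channels, was highest (39 ± 1.80), followed by *Kcnj10*, the astrocytic Kir4.1 (29.8 ± 1.85), the pore-forming BK subunit *Kcnma1* (27.2 ± 0.746), *Kcnj4*, which encodes Kir2.3 (25.4 ± 1.43), and the 2-pore channel TWIK1, *Kcnk1* (21.2 ± 1.23). The range of the 4 controls of *Kcnma1* overlapped that of both neighbours in this order, *Kcnj10* above and *Kcnj4* below, so that its place is not resolved. *Kcnj10* (lowest control 27.85) and *Kcnj4* (highest control 27.49) did not overlap each other. *Kcnj3* and *Kcnk1* did not overlap their neighbours.

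Among the 2-pore channels *Kcnk9*, the acid-sensitive TASK3, came after *Kcnk1* at 10.0 ± 0.723, and the mechanosensitive TREK1 gene *Kcnk2* at 5.53 ± 0.639. The calcium-activated *Kcnn2* (SK2) stood at 8.65 ± 0.331, against 3.04 ± 0.257 for *Kcnn1* (SK1) and 2.73 ± 0.163 for *Kcnn3* (SK3), and the sodium-activated *Kcnt2* (Slick) at 9.90 ± 0.869, against 6.96 ± 0.717 for *Kcnt1* (Slack). Of the BK beta subunits, *Kcnmb4* was at 2.26 ± 0.148 and *Kcnmb2* at 1.11 ± 0.0552. The lowest were *Kcnk15*, *Kcnj5*, *Kcnn4* and *Kcnj15*, the last listed with 2 counts in 1 control and 0 in the other 3.

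**Figure D1:**
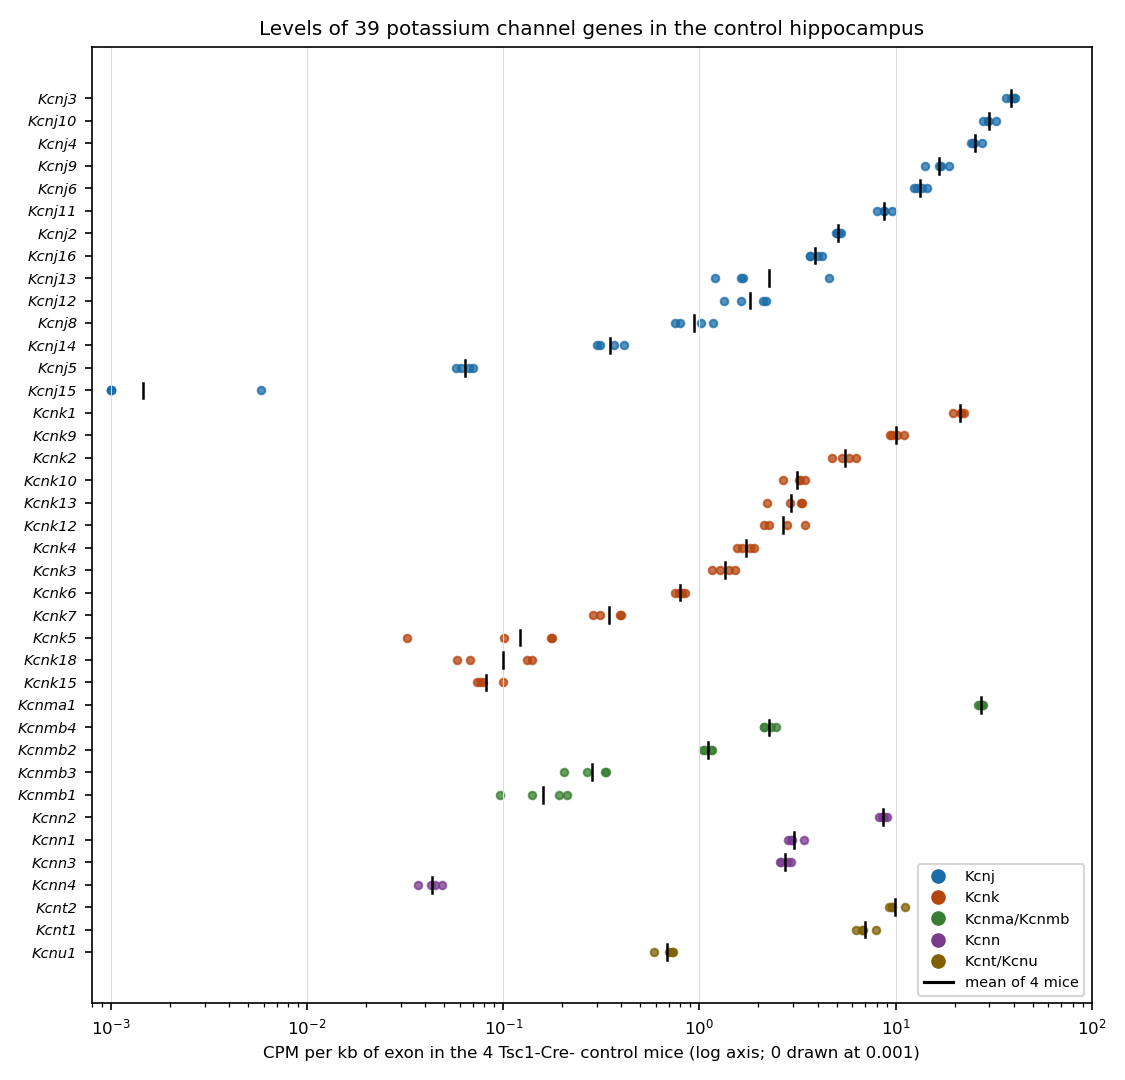
Level of each of the 39 genes in the 4 Tsc1-Cre- control mice, in CPM per kb of exon on a log axis, ordered by mean within each subfamily. Points are mice, vertical bars are means of 4, and a level of 0 is drawn at 0.001. *Kcnj3*, *Kcnj10*, *Kcnma1*, *Kcnj4* and *Kcnk1* are the 5 highest means.

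To follow the channels from before to after seizure onset, each group was compared with the controls by the quasi-likelihood test of edgeR over all genes. Called here means that the adjusted p was below 0.05 and that the log2 fold change exceeded 0.5 in size. The share of all tested genes past the same thresholds is given as background. On day 4, none of the 37 members tested was called, against 0.68% of all genes. DESeq2 also called none, and 10 members had an unadjusted p under 0.05 in either tool. For unadjusted p no share of all genes is given, here or for day 13 against day 8 below, so these counts have no background. On day 6, 1 member was called (*Kcnk12*, higher), against 1.32%, and on day 8, 2 were (*Kcnj4* and *Kcnk12*, both higher), against 3.99%. On day 13, 8 of 37 (21.6%) were called, against 16.5%: *Kcnj4*, *Kcnk1*, *Kcnk6* and *Kcnk12* rose, where 8.4% of all genes were called higher, and *Kcnj9*, *Kcnk4*, *Kcnk9* and *Kcnn3* fell, where 8.06% were called lower. The share of members called on day 13 was thus near that of all genes.

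Day 13 and day 8 mice, compared directly, gave no called member. The background of that comparison was 0% for either threshold, DESeq2 called none of the members, and 5 members had an unadjusted p under 0.05 in edgeR and 8 in DESeq2. Of the members tested between day 13 and rapamycin, 7 of 36 (19.4%) were called, against 21.1% of all genes: *Kcnk4*, *Kcnk9* and *Kcnmb2* higher under rapamycin, where 9.94% of all genes were, and *Kcnj2*, *Kcnj4*, *Kcnk1* and *Kcnk12* lower, where 11.2% were. Rapamycin mice differed from controls in 2 members, *Kcnj16* and *Kcnk13*, both lower, against a background of 1.41%.

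Without the minimum on the fold change, 1 member passed the adjusted p on day 4 (background 4.16%), 6 on day 6 (10.1%), 3 on day 8 (13.3%), 10 on day 13 (26.9%), 3 under rapamycin against control (3.57%) and 8 between rapamycin and day 13 (30.8%). Over all 6 groups in 1 fit, 16 of 39 members (41%) passed the F test at an adjusted p under 0.05, against 41.9% of all genes. They were 6 *Kcnj*, 6 *Kcnk* and 2 *Kcnn* genes, *Kcnmb2* and *Kcnt2*. The median log2 fold change on day 13 was -0.14 over the 37 members and -0.04 over all genes tested. The map of fold changes shows called and uncalled members side by side in each subfamily but the *Kcnt* and *Kcnu* genes, where no member was called in a pairwise comparison.

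**Figure D2:**
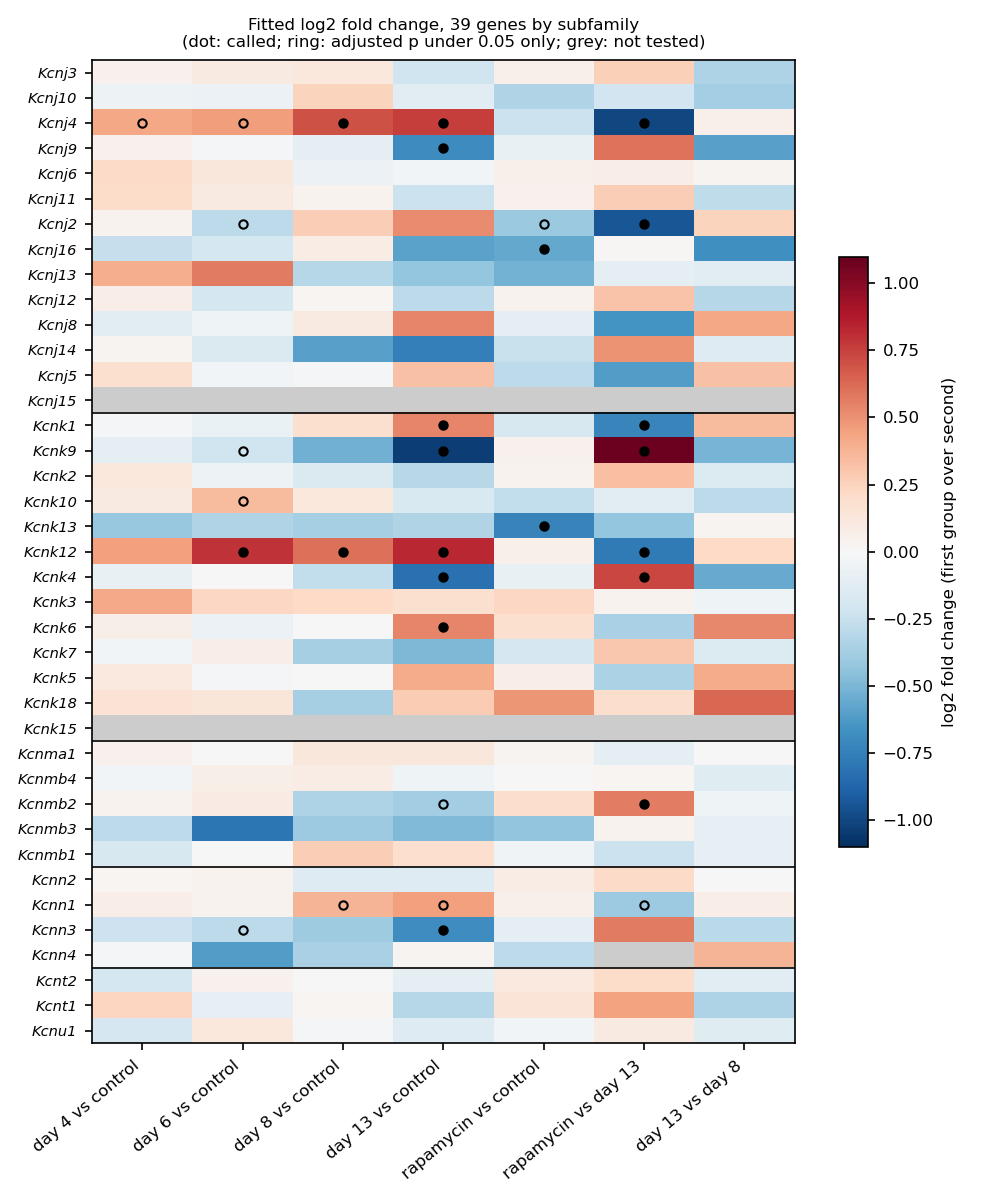
Fitted log2 fold change of the 39 genes (rows, by subfamily) in 7 comparisons (columns; first group over second, red higher, blue lower), each over 8 mice. Filled dots mark called genes, rings an adjusted p under 0.05 without the fold change minimum, and grey cells genes under the filter on low counts; *Kcnj4* and *Kcnk12* carry marks from day 4 or 6 on and the opposite sign between rapamycin and day 13.

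Summed over their genes, the subfamilies differed in course. The 14 *Kcnj* genes together held 679.7 ± 20.2 CPM in controls (mean ± SD, n = 4), 765 ± 18.8 on day 8, 656 ± 107 on day 13 and 635 ± 44.0 under rapamycin, with all day 8 mice (748.4 to 791.9 CPM) above all controls (657.2 to 702.7 CPM). The 13 *Kcnk* genes held 258 ± 9.85 CPM in controls, 212 ± 8.99 CPM on day 13 and 250.2 ± 3.90 CPM under rapamycin, with all day 13 mice (201.7 to 219.6 CPM) below all controls (248.1 to 267 CPM). *Kcnk9* alone fell from 123.1 to 60.7 CPM on average, by more than the sum, while *Kcnk1* rose from 47.5 to 69.9 CPM. Of the 12 *Kcnk* genes tested, 6 had a higher and 6 a lower fitted level on day 13. BK genes, nearly all of it *Kcnma1*, held 473 ± 12.8 CPM in controls and 522 ± 13.4 CPM on day 13, without overlap. For the *Kcnn* genes the controls (107 ± 2.96 CPM) overlapped day 13 (97.0 ± 12.4 CPM), as they did for the *Kcnt* and *Kcnu* genes (137 ± 8.97 and 121 ± 11.2 CPM). These sums were not tested.

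There were 5 members that changed on day 13 and differed in the opposite direction between rapamycin and day 13, 2 comparisons that share the day 13 mice: *Kcnj4*, *Kcnk1*, *Kcnk4*, *Kcnk9* and *Kcnk12*. Promoter sequences of 4 of them are shown because these genes hold a call in both comparisons, and that of *Kcnk9* was not used here. They run from 250 bases before to 50 after the RefSeq start site (GRCm38.p6), 5′ to 3′ on the strand of the gene. Capitals mark matches, on either strand, to the GC box GGGCGG or to TGACG, the core of the cAMP response element.
Kcnj4, chr15:79505192-79505491, minus strand: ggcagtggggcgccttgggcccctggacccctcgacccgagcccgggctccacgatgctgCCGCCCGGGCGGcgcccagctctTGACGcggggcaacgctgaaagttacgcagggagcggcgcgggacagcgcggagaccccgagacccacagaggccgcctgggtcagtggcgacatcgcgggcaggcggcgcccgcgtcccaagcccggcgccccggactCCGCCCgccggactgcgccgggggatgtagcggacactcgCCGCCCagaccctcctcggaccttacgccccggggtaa
Kcnk12, chr17:87797945-87798244, minus strand: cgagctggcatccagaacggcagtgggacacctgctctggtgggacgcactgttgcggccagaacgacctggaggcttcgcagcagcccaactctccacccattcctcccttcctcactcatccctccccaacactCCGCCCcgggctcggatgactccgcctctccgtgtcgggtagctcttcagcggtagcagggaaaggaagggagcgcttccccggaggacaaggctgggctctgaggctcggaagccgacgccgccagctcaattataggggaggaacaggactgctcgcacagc
Kcnk1, chr8:125994852-125995151, plus strand: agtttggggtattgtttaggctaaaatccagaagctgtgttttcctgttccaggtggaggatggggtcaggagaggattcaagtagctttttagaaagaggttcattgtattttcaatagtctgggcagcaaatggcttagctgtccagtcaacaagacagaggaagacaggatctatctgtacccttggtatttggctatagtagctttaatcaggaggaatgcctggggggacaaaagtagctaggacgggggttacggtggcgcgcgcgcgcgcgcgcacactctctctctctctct
Kcnk4, chr19:6934466-6934765, minus strand: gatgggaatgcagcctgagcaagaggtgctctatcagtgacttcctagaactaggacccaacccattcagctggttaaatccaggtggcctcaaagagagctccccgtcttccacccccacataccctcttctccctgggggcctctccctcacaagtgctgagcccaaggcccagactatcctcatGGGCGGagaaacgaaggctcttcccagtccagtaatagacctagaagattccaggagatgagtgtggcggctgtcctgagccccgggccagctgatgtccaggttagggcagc
The start sites of *Kcnj4*, *Kcnk12* and *Kcnk4* were those of GENCODE transcripts, and that of *Kcnk1* lay 68 bases from the nearest one. *Kcnj4* had a G and C content of 76%, with 4 GC boxes and 1 TGACG. *Kcnk12* (64.3% G and C) and *Kcnk4* (57.3%) each held 1 GC box, although the first rose and the second fell, and *Kcnk1* (49%) held neither motif. Of 32851 RefSeq promoters of this length, 35.7% held a GC box and 20.8% a TGACG, against 18 and 6 of the 40 promoters of 31 members. The full response element TGACGTCA (1.79% of all promoters), the AP-1 site TGANTCA (7.81%), the E-box CACGTG (7.15%), TGATGNAA (3.97%) and TATAAA (13.6%) had no match in the 4 windows.

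The member that differed from controls earliest was *Kcnj4* (chromosome 15, 79483714 to 79505241, minus strand), which encodes the strong inward rectifier Kir2.3. Controls had 52.1, 53.5, 59.1 and 54.1 CPM, day 4 mice 67.0, 78.2, 78.8 and 70.5 CPM and day 6 mice 69.6, 83.0, 78.8 and 72.1 CPM. On day 8 the levels were 85.9, 97.2, 83.0 and 92.1 CPM, on day 13 81.3, 92.6, 100.5 and 101 CPM and under rapamycin 46.5, 47.6, 50.2 and 41.6 CPM. Every untreated Tsc1-Cre+ mouse thus lay above every control, and every rapamycin mouse below. The log2 fold change against control was 0.43 (SE 0.06, adjusted p = 0.00216) on day 4 and 0.46 (SE 0.06, adjusted p = 0.000239) on day 6, both under the fold minimum, 0.70 (SE 0.06, adjusted p = 0.000165) on day 8 and 0.76 (SE 0.09, adjusted p = 0.000661) on day 13. Rapamycin mice were lower than day 13 mice (log2 fold change -1.0, SE 0.10, adjusted p = 0.000257), whereas their difference from controls, -0.23, did not pass (adjusted p = 0.0589). *Kcnj4* kept its calls on day 8, on day 13 and between rapamycin and day 13 under all alternatives and with any mouse left out.

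*Kcnj2* (chromosome 11, 111066164 to 111076821, plus strand) encodes Kir2.1, another Kir2 subunit of neurons, and its levels took another course. Controls had 28.6, 27.1, 27.5 and 27.9 CPM, day 4 mice 28.5, 31.0, 30.1 and 24.6 CPM and day 6 mice 25.1, 23.4, 21.8 and 21.4 CPM, so that day 6 lay below the controls (log2 fold change -0.29, SE 0.06, adjusted p = 0.00685, under the fold minimum). Day 8 mice had 35.1, 25.9, 41.6 and 32.3 CPM, day 13 mice 38.1, 32.8, 63.1 and 27.1 CPM and rapamycin mice 17.9, 19.4, 23.1 and 23.0 CPM. On day 13 the mice spread widely, with replicate C highest, and the difference from controls was 0.52 (SE 0.22, adjusted p = 0.111), which passed with all 24 mice in the fit (adjusted p = 0.0167) and without day 13 replicate D (0.0351). All rapamycin mice lay below all day 13 mice (log2 fold change -0.94, SE 0.23, adjusted p = 0.0137) and below all controls (log2 fold change -0.41, SE 0.08, adjusted p = 0.0146, under the fold minimum). The Kir2.2 gene *Kcnj12* (2.78 to 6.68 CPM over the 24 mice) and the Kir2.4 gene *Kcnj14* (0.333 to 1.24 CPM) passed no test with all 8 mice; for *Kcnj14* the day 8 and day 13 differences were -0.60 and -0.75 (adjusted p = 0.0952 and 0.144), and the second passed without day 13 replicate C (adjusted p = 0.0085).

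**Figure D3:**
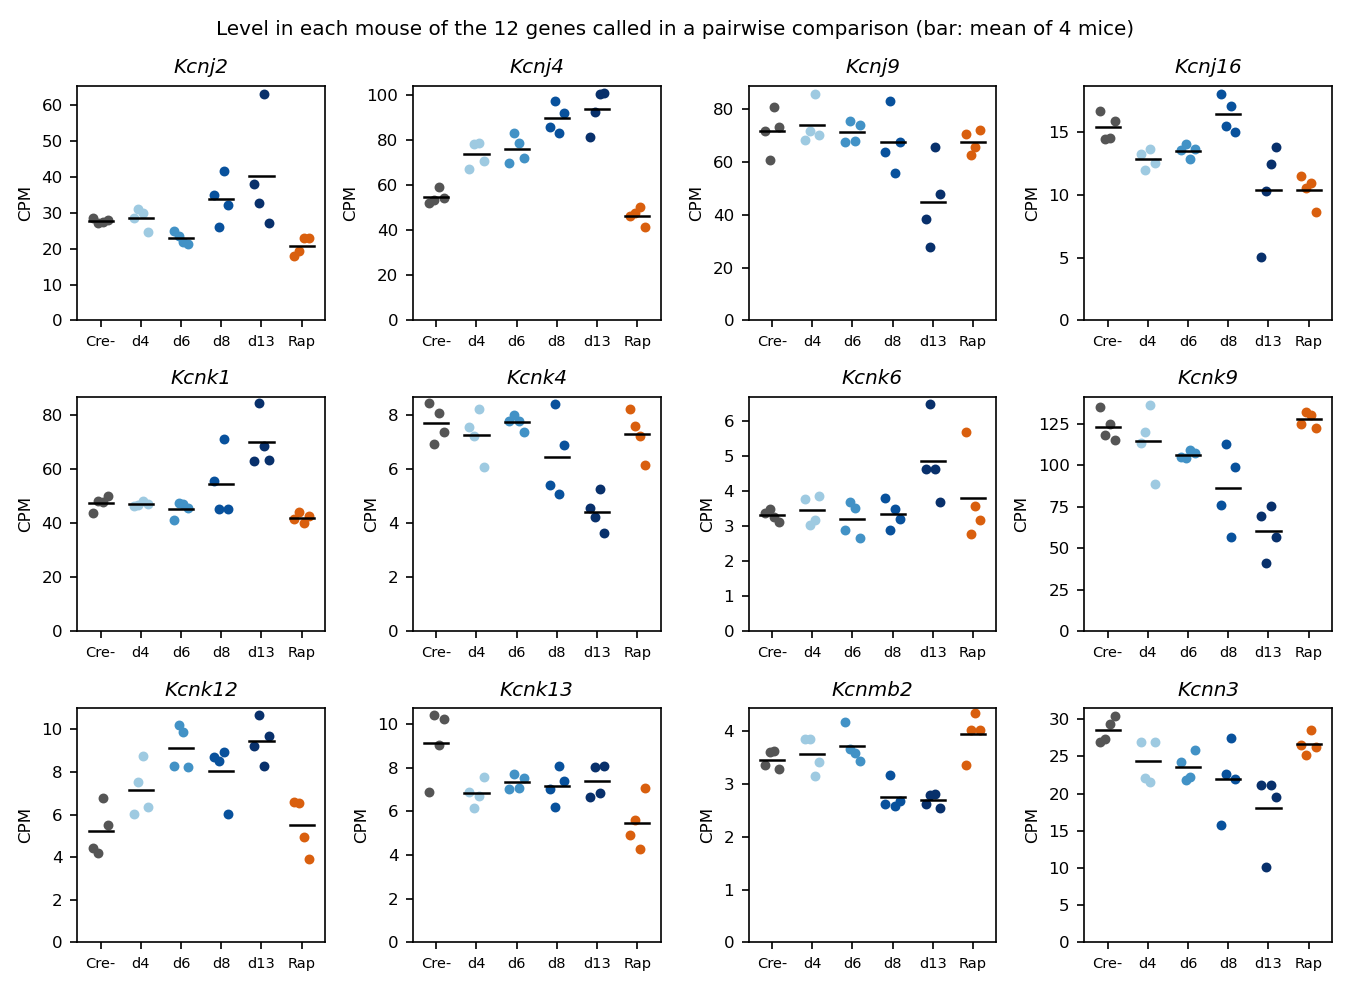
Level (CPM, axes from 0) in each of the 24 mice of the 12 genes called in at least 1 pairwise comparison. Groups are Tsc1-Cre- controls (Cre-), Tsc1-Cre+ on day 4, 6, 8 and 13 (d4 to d13) and Tsc1-Cre+-Rap 4 (Rap), points are mice and bars means of 4; *Kcnj4* steps up from day 4 on, *Kcnk9* and *Kcnn3* are lowest on day 13, and day 13 mice are spread more widely than controls for *Kcnj2*, *Kcnj9* and *Kcnj16*.

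Of the GIRK subunits, only *Kcnj9* (GIRK3; chromosome 1, 172320501 to 172329318, minus strand), a partner subunit that also steers GIRK channels to endosomes, was called in any pairwise comparison. It was at 71.5, 60.9, 80.7 and 73.3 CPM in controls, 68.3, 71.8, 85.8 and 70.1 on day 4 and 67.4, 75.6, 68.1 and 74.2 on day 6. Levels were 63.9, 83.1, 55.8 and 67.4 on day 8, 38.5, 27.9, 65.7 and 48.0 on day 13 and 70.5, 62.5, 65.5 and 72.2 CPM under rapamycin. Day 13 replicate C stayed within the range of the controls. *Kcnj9* fell on day 13 (log2 fold change -0.69, SE 0.23, adjusted p = 0.0486), close to the threshold. The call was lost without any of the 4 controls and without day 13 replicate A, B or D, with a log2 fold change of -0.51 (adjusted p = 0.0668) without replicate B and an adjusted p of up to 0.121. The difference between rapamycin and day 13 was 0.60 (SE 0.22, adjusted p = 0.0608) and was called by DESeq2 (adjusted p = 0.0303).

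*Kcnj3* (GIRK1), the highest member of its subfamily, showed no such change. It had 209, 191, 202 and 212 CPM in controls, 203, 221, 214 and 201 on day 4 and 219.6, 218, 229 and 212 on day 6. The levels were 212, 218, 213 and 244 on day 8, 149.9, 134, 226 and 197 on day 13 and 199.6, 209, 209 and 227 CPM under rapamycin. Day 13 replicates A and B were the lowest of the 24 mice, and the day 13 difference was -0.22 (SE 0.15, adjusted p = 0.319). An opposite-strand transcript (*Gm26794*) shares 31.1% of the exon bases of *Kcnj3*. *Kcnj6* (GIRK2) ranged from 84.0 to 125 CPM with a smallest adjusted p of 0.0614, and *Kcnj5* (GIRK4) was at 0.0716 to 0.507 CPM.

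Among the glial inward rectifiers, *Kcnj16* (Kir5.1; chromosome 11, 110968033 to 111027968, plus strand), which joins Kir4.1 in astrocytes, was lower under rapamycin. Controls had 16.6, 14.4, 14.5 and 15.9 CPM, day 4 mice 13.2, 12, 13.7 and 12.6 CPM and day 6 mice 13.6, 14, 12.8 and 13.6 CPM. Day 8 mice had 18, 15.5, 17.1 and 15 CPM, day 13 mice 5.06, 10.3, 12.4 and 13.8 CPM and rapamycin mice 11.5, 10.6, 10.9 and 8.63 CPM. Rapamycin and control mice did not overlap, and the gene fell (log2 fold change -0.56, SE 0.09, adjusted p = 0.00586). On day 13 the log2 fold change of -0.59 (SE 0.26, adjusted p = 0.117) did not pass, with replicate A far below the others, but did with all 24 mice in the fit (adjusted p = 0.0119), and rapamycin did not differ detectably from day 13 (0.01, adjusted p = 0.978). Beside it, 2 of 7 astrocyte markers were called lower under rapamycin (*Aqp4* and *Gfap*). Of the rest, mean levels under rapamycin and in controls were 43.1 and 33.2 CPM for *Gjb6* and 173 and 177 CPM for *Gja1*. They were 38.0 and 44.5 CPM for *Aldh1l1*, 434 and 491 CPM for *Slc1a3* and 4438 and 4492 CPM for *Slc1a2*. The summed astrocyte markers, most of it *Slc1a2*, were 5298 to 5399 CPM under rapamycin against 5370.0 to 5873 CPM in controls. On day 13 *Gfap* was called higher and *Gja1* lower. The part of these markers in the fall of *Kcnj16* was not tested. Without rapamycin replicate D the log2 fold change was -0.49 (adjusted p = 0.00704), and with all 24 mice in the fit the adjusted p was 0.130. *Kcnj10* ranged from 101 to 181 CPM on day 13 and from 100.3 to 155 CPM under rapamycin, against 151 to 175 CPM in controls and 156 to 227 CPM on day 8 (log2 fold change 0.24, adjusted p = 0.152), and passed the F test over all groups (adjusted p = 0.0328) but no pairwise comparison (log2 fold change -0.33, SE 0.10, adjusted p = 0.0949 under rapamycin).

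The pore subunits of ATP-sensitive channels were not called with 8 mice. *Kcnj11* (Kir6.2) was at 29.5 to 35.1 CPM in controls and 17.6 to 32.5 CPM on day 13 (log2 fold change -0.24, SE 0.18, adjusted p = 0.342). *Kcnj8* (Kir6.1), typical of vessels, was at 1.91 to 2.98 CPM in controls and 2.27 to 4.08 CPM on day 13 (log2 fold change 0.53, SE 0.22, adjusted p = 0.0926), and was called with all 24 mice in the fit (adjusted p = 0.036) and without day 13 replicate C (0.0182).

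*Kcnj13* encodes Kir7.1, a channel of the choroid plexus and other epithelia, and its level is plotted against the sum of choroid plexus markers. In the 9 mice with summed choroid plexus markers over 500 CPM it was at 2.87 to 5.95 CPM, and in the other 15 mice at 1.31 to 2.97 CPM. These 9 mice came from the control, day 4, day 6, day 8 and rapamycin groups. Its differences between groups, between -0.52 and 0.57 on the log2 scale over the 7 comparisons, did not pass. *Gigyf2* on the opposite strand shares 49.1% of the exon bases of *Kcnj13*.

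*Kcnj15* (Kir4.2) had too few counts for the pairwise tests in edgeR and passed the F test over all groups (adjusted p = 0.000731). Counts were 2, 0, 0 and 0 in controls, 25, 42, 6 and 8 on day 13 and 2, 2, 2 and 0 under rapamycin. Relative to library totals, the 81 day 13 counts against 2 control counts gave a ratio of 32.8 (95% exact interval 8.79 to 275, for counting error only), and the 6 rapamycin counts a ratio of 3.8 (0.679 to 38.5). Nearly all *Kcnj15* counts were even numbers, as where both reads of a pair are counted. All these intervals take each count as independent and are then too narrow. For the earlier groups they do not settle a difference from control. Earlier groups were also above control in this measure, which rests on the same 2 control counts. The ratio was 4.81 (1.02 to 45.1) for 10 counts on day 4, 9.96 (2.42 to 87.9) for 20 on day 6 and 7.44 (1.73 to 67) for 15 on day 8. The highest level in any mouse was 0.384 CPM. Without a filter on low counts, the day 13 difference had an adjusted p of 0.00216 in edgeR and, in DESeq2, of 0.000205.

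**Figure D4:**
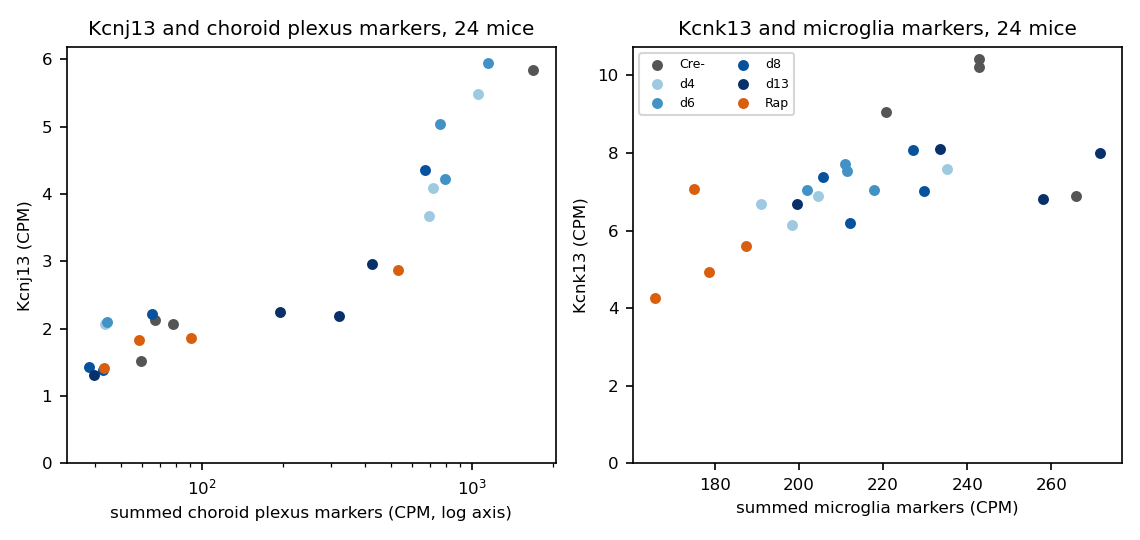
Left, *Kcnj13* (CPM) against the summed choroid plexus markers (CPM, log axis); right, *Kcnk13* (CPM) against the summed microglia markers (CPM). Points are the 24 mice, coloured by group; mice with choroid plexus sums over 500 CPM have 2.87 to 5.95 CPM of *Kcnj13*, and the 4 rapamycin mice have the lowest microglia sums.

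Changes among the 2-pore channels ran in both directions. *Kcnk1* (TWIK1; chromosome 8, 125995170 to 126030685, plus strand), a weak inward rectifier of neurons and astrocytes, had 43.6, 48.2, 48.0 and 50.1 CPM in controls, 46.3, 46.7, 48.4 and 46.9 on day 4 and 41.1, 47.5, 47.3 and 45.7 on day 6. It was at 55.4, 45.3, 71.3 and 45.2 on day 8, 63.0, 84.4, 68.6 and 63.5 on day 13 and 41.5, 44.1, 40.1 and 42.5 CPM under rapamycin. The rise lay at the last time point: all day 13 mice exceeded all controls and all rapamycin mice, while day 8 replicates A and C exceeded the controls and B and D did not. The log2 fold change was 0.54 (SE 0.09, adjusted p = 0.00397) on day 13 and -0.72 (SE 0.10, adjusted p = 0.000902) between rapamycin and day 13. Without day 13 replicate B, which had the highest level, the day 13 value was 0.45 (adjusted p = 0.00321), under the fold minimum.

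*Kcnk6* (TWIK2; chromosome 7, 29221926 to 29232515, minus strand), its low-level relative, was at 3.37, 3.50, 3.27 and 3.12 CPM in controls, 3.79, 3.03, 3.19 and 3.86 on day 4 and 2.88, 3.71, 3.53 and 2.66 on day 6. It was at 3.82, 2.89, 3.51 and 3.20 on day 8, 4.63, 6.5, 4.63 and 3.70 on day 13 and 5.69, 2.78, 3.58 and 3.17 CPM under rapamycin. It rose on day 13 (log2 fold change 0.53, SE 0.17, adjusted p = 0.0398), and that call was lost without any of the 4 controls, without day 13 replicate A (adjusted p = 0.0626) or B (log2 fold change 0.37, adjusted p = 0.0849), and under 4 of 7 alternatives. Rapamycin replicate A, at 5.69 CPM, lay among the day 13 mice, and the 2 groups did not differ detectably (log2 fold change -0.36, SE 0.24, adjusted p = 0.286). The third relative, *Kcnk7*, was at 0.152 to 0.750 CPM and passed no test.

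The largest fall among the members on day 13 was that of *Kcnk9* (TASK3; chromosome 15, 72501089 to 72546340, minus strand), a leak channel that closes in acid and under muscarinic drive. Controls had 135, 118, 124 and 115 CPM, day 4 mice 114, 120.0, 136 and 88.8 CPM and day 6 mice 105, 104, 109 and 107 CPM. Levels were 75.8, 112, 56.9 and 98.9 CPM on day 8 and 69.6, 41.1, 75.2 and 56.7 CPM on day 13, whereas rapamycin mice had 125, 132, 130.3 and 122 CPM. From day 6 on, no untreated Tsc1-Cre+ mouse overlapped the controls. The log2 fold change was -0.22 (SE 0.05, adjusted p = 0.00768) on day 6, under the fold minimum, -0.53 (SE 0.17, adjusted p = 0.0624) on day 8, where DESeq2 called it (adjusted p = 0.0108), and -1.04 (SE 0.17, adjusted p = 0.00297) on day 13. Rapamycin mice were higher than day 13 mice (log2 fold change 1.08, SE 0.16, adjusted p = 0.00164) and overlapped the controls (log2 fold change 0.05, SE 0.06, adjusted p = 0.689). The day 13 and rapamycin calls held under all alternatives and with any mouse left out. Its closest relative *Kcnk3* (TASK1) was not called, with 4.62 to 6.07 CPM in controls and 4.97 to 7.73 CPM on day 13 (log2 fold change 0.18, SE 0.16, adjusted p = 0.419).

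*Kcnk4* (TRAAK; chromosome 19, 6923966 to 6934515, minus strand), a channel opened by membrane stretch and found at nodes of axons, had 8.44, 6.95, 8.10 and 7.39 CPM in controls, 7.58, 7.23, 8.24 and 6.08 on day 4 and 7.80, 7.99, 7.80 and 7.38 on day 6. Levels were 5.43, 8.42, 5.08 and 6.91 on day 8, 4.58, 4.23, 5.28 and 3.65 on day 13 and 8.22, 7.61, 7.24 and 6.17 CPM under rapamycin. All day 13 mice lay below all controls and all rapamycin mice, while the day 8 mice overlapped the controls. *Kcnk4* fell on day 13 (log2 fold change -0.82, SE 0.14, adjusted p = 0.00347) and was higher under rapamycin than on day 13 (log2 fold change 0.73, SE 0.15, adjusted p = 0.00658), and neither call was lost under any alternative or without any mouse. The neighbouring *Catsperz* shares 13.1% of the exon bases of *Kcnk4* on the same strand, and how the counting assigned such reads is not stated. The related TREK genes were not called: *Kcnk2* was at 23.5 to 31.0 CPM in controls and 17.9 to 28.2 CPM on day 13 (log2 fold change -0.30, SE 0.15, adjusted p = 0.151), and *Kcnk10* (TREK2) was higher on day 6 (log2 fold change 0.35, SE 0.07, adjusted p = 0.00568), under the fold minimum, with 35.1 to 36.6 CPM against 23.4 to 30.3 CPM in controls, and was at 21.9 to 28.7 CPM on day 13.

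Beside the members that fell on day 13, 2 of 5 dentate granule cell markers were also called lower (*Dock10* and *Stxbp6*). The sum of these 5 markers was 342 to 568 CPM on day 13 against 594 to 686 CPM in controls and 589.8 to 787 CPM under rapamycin. The rest were not called. Their means on day 13 and in controls were 117 and 133 CPM for *Prox1*, 39.4 and 44.2 for *C1ql2* and 72.2 and 109 for *Dsp*. The CA1 markers summed to 318 to 438 CPM on day 13 and 396 to 478 CPM in controls, with 1 of 4 called, *Pou3f1*, which was higher. *Fibcd1*, not called, had a mean of 75.1 CPM on day 13, against 137 in controls and 126 under rapamycin. Means on day 13 and in controls were 115 and 93.0 CPM for *Wfs1* and 146 and 158 for *Mpped1*. Of 4 CA3 markers, *Cdh24* was called lower on day 8 (-0.74) and day 13 (-1.13) and higher under rapamycin than on day 13 (1.36), with 20.2 to 22.4 CPM in controls, 6.91 to 12.3 on day 13 and 20.8 to 28.7 under rapamycin, while the CA3 sum was 160.1 to 183 CPM on day 13 and 150.2 to 176 CPM in controls. The part of these markers in the falls of *Kcnj9*, *Kcnk4*, *Kcnk9* and *Kcnn3* was not tested. Beside the members that rose, the excitatory neuron marker *Slc17a7*, the vesicular glutamate transporter, was called higher on day 13 (log2 fold change 0.73, SE 0.08, adjusted p = 0.000508) and lower under rapamycin than on day 13 (-0.79). It was at 612 to 739 CPM in controls, 774 to 1004 on day 8, 1055 to 1123 on day 13 and 552 to 714 under rapamycin. The other 3 excitatory markers were not called in either comparison, and the part of *Slc17a7* or of what it marks in the rises of *Kcnj4*, *Kcnk1* and *Kcnk12* was not tested.

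The THIK pair moved in opposite directions in different groups. *Kcnk12* (THIK2; chromosome 17, 87745801 to 87797994, minus strand), whose protein is mostly held inside the cell, had 4.46, 4.20, 6.79 and 5.54 CPM in controls, 6.05, 7.53, 8.76 and 6.38 on day 4 and 8.30, 10.2, 9.87 and 8.23 on day 6. It had 8.70, 8.54, 8.95 and 6.04 on day 8, 9.24, 10.7, 8.26 and 9.71 on day 13 and 6.59, 6.55, 4.93 and 3.90 CPM under rapamycin. Day 6 and day 13 mice all lay above the controls, while day 8 replicate D fell within their range. It rose on day 6, day 8 and day 13, with log2 fold changes of 0.79 (SE 0.14, adjusted p = 0.00293), 0.60 (SE 0.17, adjusted p = 0.0403) and 0.83 (SE 0.16, adjusted p = 0.00649), while the day 4 value of 0.45 (SE 0.16, adjusted p = 0.140) did not pass. Rapamycin mice were lower than day 13 mice (log2 fold change -0.78, SE 0.18, adjusted p = 0.00975) and overlapped the controls (log2 fold change 0.06, SE 0.19, adjusted p = 0.905). The day 8 call was lost without control replicate A, B or D or day 8 replicate A, B or C (adjusted p up to 0.107) and with the replicate block or *Ttr* as a covariate, whereas the day 6, day 13 and rapamycin calls were kept throughout.

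*Kcnk13* (THIK1; chromosome 12, 99964499 to 100062682, plus strand), the main leak channel of microglia, had 6.90, 10.4, 9.06 and 10.2 CPM in controls, 6.89, 6.15, 6.69 and 7.59 on day 4 and 7.04, 7.73, 7.05 and 7.53 on day 6. Levels were 7.01, 6.19, 8.08 and 7.37 on day 8, 6.67, 8.01, 6.82 and 8.09 on day 13 and 4.93, 5.61, 4.26 and 7.06 CPM under rapamycin. Control replicate A, at 6.9 CPM, lay below the highest rapamycin mouse, so that the groups overlapped. *Kcnk13* fell under rapamycin (log2 fold change -0.74, SE 0.16, adjusted p = 0.0248). The call was lost without control replicate B, C or D or rapamycin replicate A, B or C and with *Xist* as a covariate (adjusted p up to 0.072). Differences of -0.42, -0.33, -0.37 and -0.33 on days 4, 6, 8 and 13 did not pass. Of 6 microglia markers, 2 (*Aif1* and *Cx3cr1*) were called lower under rapamycin, and the 6 summed to 166 to 187 CPM under rapamycin against 221 to 266 CPM in controls. On day 13 the sum was 199.6 to 271.5 CPM. Control replicate A had the highest sum of the controls (265.8 CPM) and their lowest *Kcnk13* level. The part of the microglia markers in the fall of *Kcnk13* was not tested. The remaining 2-pore genes *Kcnk5* (0.110 to 0.799 CPM), *Kcnk15* (0.0406 to 0.311 CPM) and *Kcnk18* (0.0888 to 0.630 CPM) passed no test.

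Of the BK genes, the pore subunit *Kcnma1* stayed within a narrow range. Controls had 475, 445, 466 and 458 CPM, day 4 mice 521, 467, 468 and 451 CPM and day 6 mice 479.6, 448, 467 and 462 CPM. Day 8 mice had 492, 507, 546 and 482 CPM, day 13 mice 517, 526, 504 and 496 CPM and rapamycin mice 466, 452, 519.7 and 448 CPM. Day 8 and day 13 mice all lay above the controls, but the log2 fold changes of 0.12 (SE 0.05, adjusted p = 0.155) and 0.13 (SE 0.05, adjusted p = 0.111) did not pass. *Kcnmb2* (chromosome 3, 31902507 to 32200180, plus strand), the beta subunit that makes BK currents inactivate, was at 3.36, 3.6, 3.62 and 3.28 CPM in controls, 3.86, 3.84, 3.16 and 3.41 on day 4 and 4.18, 3.66, 3.6 and 3.43 on day 6. It was at 2.63, 3.16, 2.59 and 2.67 on day 8, 2.63, 2.80, 2.81 and 2.54 on day 13 and 3.37, 4.03, 4.35 and 4.02 CPM under rapamycin. Day 8 and day 13 mice all lay below the controls (log2 fold change -0.34, SE 0.12, adjusted p = 0.0838 and -0.38 (SE 0.12, adjusted p = 0.0397), the second past the adjusted p but under the fold minimum), and *Kcnmb2* was higher under rapamycin than on day 13 (log2 fold change 0.56, SE 0.14, adjusted p = 0.0129). *Kcnmb4*, the main neuronal beta subunit, ranged from 6.45 to 8.62 CPM over all mice with a smallest adjusted p of 0.582, and *Kcnmb1* (0.305 to 1.1 CPM) and *Kcnmb3* (0.113 to 0.575 CPM) passed no test.

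The SK genes split: *Kcnn3* fell, *Kcnn1* was higher below the fold minimum, and *Kcnn2* passed no test. *Kcnn3* (SK3; chromosome 3, 89520164 to 89675132, plus strand) had 26.9, 27.3, 29.4 and 30.5 CPM in controls, 26.9, 22.0, 21.5 and 27.0 on day 4 and 24.2, 21.9, 22.2 and 25.8 on day 6. Levels were 15.7, 22.7, 27.5 and 21.9 on day 8, 21.2, 10.2, 21.2 and 19.6 on day 13 and 26.6, 25.2, 28.6 and 26.3 CPM under rapamycin. Day 6 and day 13 mice all lay below the controls, with day 13 replicate B lowest. The log2 fold change was -0.29 (SE 0.07, adjusted p = 0.0132) on day 6, under the fold minimum, -0.39 (SE 0.14, adjusted p = 0.0827) on day 8 and -0.68 (SE 0.21, adjusted p = 0.039) on day 13. Without day 13 replicate B the day 13 value was -0.47 (adjusted p = 0.00429), under the fold minimum, and the call was also lost without any of the 4 controls and with *Xist* (adjusted p = 0.0573) or *Ttr* (0.059) as a covariate. Rapamycin mice all lay above the day 13 mice, but the log2 fold change of 0.57 (SE 0.21, adjusted p = 0.0603) did not pass in edgeR and did in DESeq2 (adjusted p = 0.0319).

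*Kcnn1* (SK1) was at 13.0 to 15.7 CPM in controls, at 15.4 to 20.5 on day 8 and at 17.8 to 20.3 on day 13, a log2 fold change of 0.37 (SE 0.09, adjusted p = 0.0259) on day 8 and 0.45 (SE 0.09, adjusted p = 0.0069) on day 13. Rapamycin mice had 18.7, 14.2, 13.4 and 12.1 CPM, so that replicate A lay among the day 13 mice. The log2 fold change between rapamycin and day 13 was -0.40 (SE 0.14, adjusted p = 0.0462), under the fold minimum. Against control it was 0.06 (SE 0.12, adjusted p = 0.850) under rapamycin. *Kcnn2* (SK2), the subunit most tied to the afterhyperpolarization of hippocampal pyramidal neurons, had 67.6, 61.7, 63.9 and 65.3 CPM in controls, 61.2, 66.0, 69.0 and 66.1 on day 4 and 69.0, 63.2, 71.0 and 64.2 on day 6. It had 58.0, 63.6, 57.5 and 57.2 on day 8, 42.5, 59.6, 68.1 and 67.2 on day 13 and 64.9, 71.1, 67.8 and 69.8 CPM under rapamycin. Its log2 fold changes lay between -0.14 and 0.21 over the 7 comparisons, with a smallest adjusted p of 0.103. *Kcnn4* (IK) was at 0.0375 to 0.355 CPM and passed no test.

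*Kcnt2* (Slick), a channel opened by sodium, passed the F test (adjusted p = 0.0189) but no pairwise comparison. Controls had 77.0, 63.5, 66.2 and 66.1 CPM, day 4 mice 60.1, 61.3, 61.4 and 56.4 CPM and day 6 mice 73.3, 67.7, 75.7 and 67.8 CPM. Day 8 mice had 67.0, 67.5, 63.1 and 79.0 CPM, day 13 mice 58.6, 66.8, 63.8 and 67.9 CPM and rapamycin mice 68.1, 71.2, 74.1 and 79.6 CPM. Its lowest group was day 4, where all mice lay below the controls (log2 fold change -0.19, SE 0.06, adjusted p = 0.0788). *Kcnt1* (Slack) had 59.7 to 75.7 CPM in controls and 37.1 to 67.4 CPM on day 13 (log2 fold change -0.31, SE 0.17, adjusted p = 0.202), and *Kcnu1* was at 1.73 to 3.37 CPM.

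With rapamycin from day 4, none of the 8 members called on day 13 was called against control, where only 1.41% of all genes were. The 2 comparisons share their controls, so their values are set side by side in the plot of day 13 with and without rapamycin. On the log2 scale, *Kcnj4* was at 0.76 without and -0.23 with rapamycin, *Kcnk12* at 0.83 and 0.06, *Kcnk1* at 0.54 and -0.17, and *Kcnk6* at 0.53 and 0.17. Among those that fell, *Kcnk9* was at -1.04 and 0.05, *Kcnk4* at -0.82 and -0.08, *Kcnn3* at -0.68 and -0.10, and *Kcnj9* at -0.69 and -0.08. The direct test between rapamycin and day 13 passed for 5 of the 8 and did not for *Kcnj9*, *Kcnk6* and *Kcnn3* (adjusted p = 0.0608, 0.286 and 0.0603). Of all genes, 21.1% were called in that test. The 8 had been picked by the same day 13 mice, so the 2 shares are not alike.

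**Figure D5:**
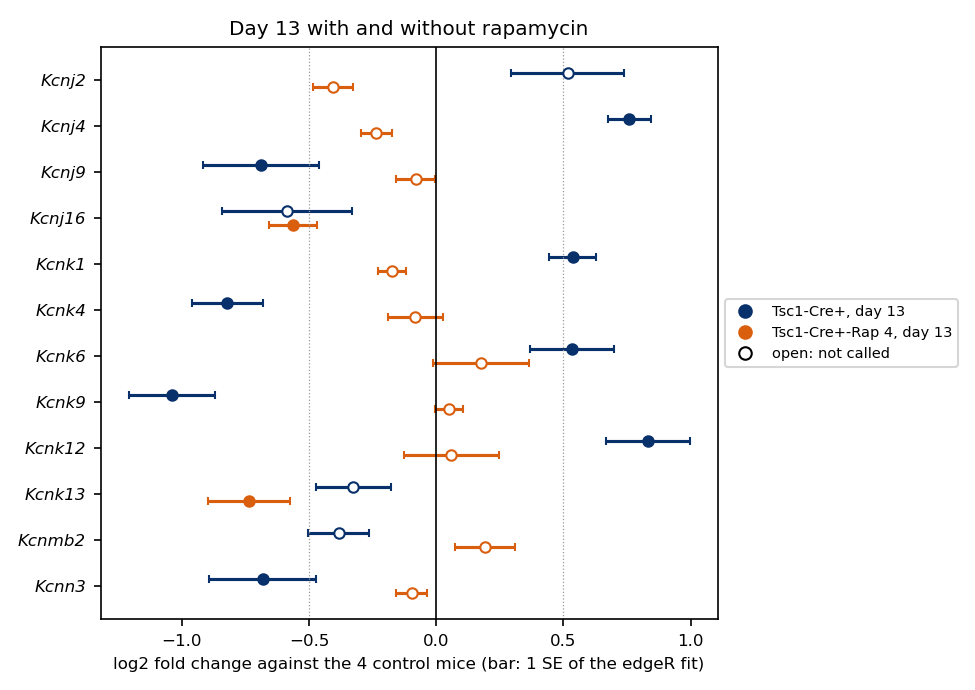
Log2 fold change against the same 4 controls, with 1 SE of the edgeR fit, for the 12 genes called in any pairwise comparison, in Tsc1-Cre+ mice on day 13 (blue) and Tsc1-Cre+-Rap 4 mice (orange). Filled points were called and dotted lines mark the fold change minimum; 8 genes are filled on day 13, and *Kcnj16* and *Kcnk13* are filled under rapamycin.

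Several members are neighbours in the genome (GRCm38), and the nearest pairs are given here side by side. *Kcnj9* and *Kcnj10* lie 11.9 kb apart on chromosome 1, transcribed away from each other; *Kcnj9* was called lower on day 13 and *Kcnj10* was at -0.13 (adjusted p = 0.559), while both passed the F test over all groups. *Kcnj16* and *Kcnj2* lie 38.2 kb apart on the same strand of chromosome 11, and both passed the F test. On day 13 they had log2 fold changes of opposite sign, -0.59 and 0.52, neither called with 8 mice and both called with all 24 mice in the fit (adjusted p = 0.0119 and 0.0167). Under rapamycin against control both were lower without overlap, -0.56 (called) and -0.41 (past the adjusted p but under the fold minimum). *Kcnj15*, with its 81 counts on day 13, lies 259.9 kb from *Kcnj6* on chromosome 16.

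Genes that act with the channels were read in the same comparisons: 31 partner genes, of which 30 could be tested. None was called on day 4, day 6, under rapamycin against control or between day 13 and day 8, 2 were on day 8 (6.67%, against 3.99% of all genes), 5 on day 13 (16.7%, against 16.5%) and 6 between rapamycin and day 13 (20%, against 21.1%), so that the last pair of shares was near that of all genes. *Abcc8*, the sulfonylurea receptor that pairs with Kir6.2, fell from 53.9 to 57.7 CPM in controls to 15.3 to 41.6 CPM on day 13 (log2 fold change -0.88, SE 0.26, adjusted p = 0.0332) and was at 52.5 to 64.7 CPM under rapamycin. Of 11 receptors that open GIRK channels, the neuropeptide Y receptor *Npy2r* fell on day 8 (log2 fold change -0.52, SE 0.11, adjusted p = 0.0132) and day 13 (log2 fold change -1.16, SE 0.24, adjusted p = 0.00878), the mu opioid receptor *Oprm1* fell on day 13 (log2 fold change -0.66, SE 0.16, adjusted p = 0.0147), and the somatostatin receptor *Sstr2* rose on day 13 (log2 fold change 1.79, SE 0.29, adjusted p = 0.00291).

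Between rapamycin and day 13, *Abcc8* (0.94) and *Npy2r* (0.99) were higher and *Sstr2* (-1.87) lower under rapamycin. *S100a10*, whose protein binds TASK1, was at 5.30 to 6.6 CPM in controls and 5.65 to 61.9 CPM on day 13 (log2 fold change 2.27, SE 0.66, adjusted p = 0.0318), with wide differences between mice, and was lower under rapamycin (log2 fold change -2.75, SE 0.69, adjusted p = 0.0144). Of the proteins bound to SK channels, *Csnk2b* (a casein kinase subunit, -0.50) was lower under rapamycin than on day 13 and was not called against control. The BK gamma subunit *Lrrc26* rose on day 8 (log2 fold change 0.63, SE 0.12, adjusted p = 0.00827). None of the 7 GIRK regulators was called in any pairwise comparison.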

How the data were processed

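Hippocampal RNA, depleted of ribosomal RNA, was sequenced from 24 mice (4 in each of 6 groups). The authors trimmed the reads with cutadapt 1.16.5, aligned them to mm10 with STAR 2.7.2b and deposited raw counts per gene from featureCounts 1.6.4 on GENCODE M24, 1 file per mouse. The strand and multi-mapping settings are not given in the sources used here, so that reads of overlapping genes may be shared. Names and exon lengths came from GENCODE M21, in which 55144 of the 55385 identifiers were found.

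From the deposited counts, edgeR 4.0.16 (R 4.3.3; filterByExpr, TMM, quasi-likelihood test, 8 mice per comparison) was fitted over all genes and p-values were adjusted by the Benjamini-Hochberg method. Called genes had an adjusted p below 0.05 and a log2 fold change larger than 0.5 in size. An F test covered all 24 mice, without a fold minimum. CPM (counts per 1000000) values use TMM factors of all 24 libraries. The fits were tested on simulated data. Groups came from the labels, and replicates (A to D) are separate mice. Values are given for each mouse for members called in any pairwise comparison and for the highest of each subfamily per length. Alternatives were DESeq2 1.42.0, edgeR with the size factors of DESeq2, no filter on low counts and all 24 mice in 1 fit. Further ones were the replicate letter as a block, *Xist* or *Ttr* as a covariate and leaving out each mouse. For day 8 against control, the start of the library number was also used as a block. Dropping the fold minimum was applied to the number of members called and not to single calls. Depth (28208561 to 126435936 counts) limits genes under about 1 CPM. The members, gene lists and tests were chosen with earlier results of these data known. Intervals cover counting error only and take each count as independent. The values of 1 called partner gene are not reported here.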

Additional observations from a re-analysis of the deposited data

Results flagged for a closer look

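In 4 of 96 groups of 4 mice, over 16 genes, 1 mouse stood far from the other 3 by Dixon's test; chance alone gives about 1 in 20. On day 8, replicate D was lowest for *Kcnk12* (6.04 CPM, against 8.54 to 8.95 CPM in the others). Replicate B of the same group was highest for *Kcnmb2* (3.16 CPM, against 2.59 to 2.67 CPM) and for *Kcnn2* (63.6 CPM, against 57.2 to 58.0 CPM). On day 13, replicate B was lowest for *Kcnn3* (10.2 CPM, against 19.6 to 21.2 CPM).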

How the results depend on the processing

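Of 20 calls of a member in a comparison, 13 were kept under all alternatives and with any mouse left out: *Kcnk12* on days 6 and 13, *Kcnj4* on days 8 and 13, *Kcnk4* and *Kcnk9* on day 13, and all 7 between rapamycin and day 13. Over the alternative values of these calls, 260 kept the call, 42 lost it and 0 changed direction. The number of members called changed as follows, and the cause was not tested. On day 4 it was 1 with *Ttr* as a covariate and 1 with no fold minimum. On day 6 it was 6 with no fold minimum. On day 8 it was 1 with *Ttr*. On day 13 it was 12 with all 24 mice in the fit (*Kcnj2*, *Kcnj8*, *Kcnj15* and *Kcnj16* added), 10 with no fold minimum, 9 with DESeq2, 6 with *Xist* and 6 with *Ttr* as a covariate. For rapamycin against control it was 1 with all 24 mice in the fit and 1 with *Xist* as a covariate; for rapamycin against day 13 it was 11 with DESeq2 and 11 with all 24 mice; and for day 13 against day 8 it was 4 with all 24 mice (*Kcnj9*, *Kcnj15*, *Kcnj16* and *Kcnk4*).

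Leaving out 1 mouse gave 0 to 1 called members on day 4, 1 to 2 on day 6, 1 to 2 on day 8, 4 to 11 on day 13 (4 without day 13 replicate B and 11 without replicate C), 1 to 2 for rapamycin against control, 7 to 11 for rapamycin against day 13 (11 without day 13 replicate C) and 0 to 0 for day 13 against day 8. The F test passed 15 to 21 members, 21 of them without day 13 replicate C.

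With the replicate letter as a block, 0, 2, 1 and 7 members were called on days 4, 6, 8 and 13, 2 for rapamycin against control, 9 for rapamycin against day 13 and 0 for day 13 against day 8, and 15 passed the F test. The letters did not pair the mice: correlations of same-letter deviations ran from -0.385 to 0.191, and at most 1 mouse per comparison correlated best with its own letter.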

Other observations

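Shares within channel families, computed per exon length and chosen after the values were seen, showed how the makeup of each family shifted; none was tested. *Kcnj4* made up 77.8% ± 0.756 (SD, n = 4) of the Kir2 genes in controls and 85.2% ± 1.55 on day 6, its highest group. It made up 82.8% ± 4.39 on day 13 and 78.2% ± 2.19 under rapamycin. Day 13 mice (77.7 to 87.1%) overlapped the controls (76.8 to 78.5%). *Kcnk9* made up 87.5% ± 1.87 of the TASK genes in controls, 75.2% ± 4.85 on day 13 and 86.3% ± 2.00 under rapamycin, with no overlap between day 13 (68.8 to 79.9%) and either other group. *Kcnk12* made up 47.4% ± 6.58 of the THIK pair in controls and 66.9% ± 1.56 on day 13, and under rapamycin, where *Kcnk13* was lower, 61.0% ± 9.73. *Kcnj9* held 24.1% ± 1.98 of the GIRK genes in controls and 17.8% ± 2.60 on day 13, and *Kcnn3* 18.9% ± 0.986 and 12.5% ± 4.02 of the SK genes, with *Kcnn3* as low as 7.26% in 1 day 13 mouse. *Kcnk1* held 93.9 to 95.7% of the TWIK genes on average in all 6 groups.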
